A study of Mus musculus with 10 samples.

Results

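The genes described here are the secreted Wnt ligands, their Frizzled receptors and co-receptors, the secreted proteins that block or boost Wnt signalling, and a few intracellular members, measured in whole testes of 10 day old mice. They were chosen by gene symbol: every probe set whose platform annotation names a single gene called Wnt, Fzd, Sfrp or Dkk with a digit, or Wif1, Lrp5, Lrp6, Axin1, Axin2, Lef1, Tcf7 or Rspo1. This gave 62 of 22626 probe sets, for 43 of 12393 genes. A probe set is a group of short DNA probes on the array that together report 1 transcript. No probe set was annotated to Tcf7 alone, so that gene has no value here.

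Wnt proteins are lipid-modified signals that act over short distances. The acyltransferase encoded by Porcn attaches the lipid and the carrier encoded by Wls takes the modified protein to the cell surface. Binding to a Frizzled receptor with the co-receptor Lrp5 or Lrp6 stabilises beta-catenin, which acts in the nucleus with Lef1 and Tcf7 and turns on feedback genes such as Axin2. Other ligands, Wnt5a above all, mostly act without beta-catenin and steer cell polarity and movement. In the mouse gonad Wnt4 and Rspo1 are known for promoting the ovarian path.

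The study compared SCARKO mice, in which the androgen response is lost only in Sertoli cells, the somatic cells that nurse germ cells, with littermate control mice that carried the AMHCre transgene, all at age 10 days. The Amh promoter that drives this Cre is active in Sertoli cells, so the other androgen-responsive cells of the SCARKO testis keep their response. Each array held RNA of 1 pool, made from 1 testis of each of 3 littermates, and there were 5 SCARKO and 5 control pools with shared pair numbers. In whole testis, fewer cells of a type and less RNA per cell cannot be told apart.

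Titles and descriptions of the arrays name opposite genotypes for the pairs numbered 1 to 4 and the same genotype for pair 5, and the titles were used. Rhox5, an X-linked homeobox gene that marks androgen action in Sertoli cells, had signals of 7.9 to 12.7 in the SCARKO pools and 86.6 to 241.4 in the control pools by title. In pair 5, where the labels match, it was 9.7 in SCARKO and 212.1 in control, and the SCARKO pool was the lower one of all 5 pairs. The SCARKO signals lie under the limit for testing used here, a signal of 19.3, so the size of this difference is not given. The deposited signals had the same trimmed mean of 100 on all 10 arrays, with medians from 36.4 to 37.6. With groups taken from the descriptions, limma called 0 probe sets on the whole array, and 611 had an unadjusted p under 0.05. Of the 14 Sertoli cell marker genes on the array, all 14 were bright enough to be tested.

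Promoter sequences were taken from RefSeq (build GRCm38.p6) as the 250 bases before an annotated start, which covered 28 of the 43 genes with 34 windows. Shown are Wls, which was higher in SCARKO testes, as Wnt5a was; Wnt6, the tested ligand without a call; Axin2, the feedback gene; and Jun, the target that rose. Capitals mark an androgen response half-site (AGAACA) or a TCF/LEF core (CTTTGA and also CTTTGT), each searched on both strands.
Wls (chr3:159839400-159839649, plus strand): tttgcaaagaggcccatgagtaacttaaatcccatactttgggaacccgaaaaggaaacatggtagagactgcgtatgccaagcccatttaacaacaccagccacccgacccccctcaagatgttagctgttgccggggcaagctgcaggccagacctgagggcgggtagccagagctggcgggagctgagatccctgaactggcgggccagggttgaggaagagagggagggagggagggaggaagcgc
Wnt6 (chr1:74771642-74771891, plus strand): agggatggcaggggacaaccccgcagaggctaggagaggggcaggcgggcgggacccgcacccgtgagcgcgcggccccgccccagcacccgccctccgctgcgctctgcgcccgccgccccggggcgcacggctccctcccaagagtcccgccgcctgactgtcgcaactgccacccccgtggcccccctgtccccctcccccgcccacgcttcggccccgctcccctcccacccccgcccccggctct
Axin2 (chr11:108920099-108920348, plus strand): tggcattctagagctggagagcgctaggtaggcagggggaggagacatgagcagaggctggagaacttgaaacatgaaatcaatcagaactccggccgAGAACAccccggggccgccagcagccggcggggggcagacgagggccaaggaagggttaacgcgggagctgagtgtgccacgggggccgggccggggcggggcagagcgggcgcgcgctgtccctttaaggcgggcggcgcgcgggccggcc
Jun (chr4:95052223-95052472, minus strand): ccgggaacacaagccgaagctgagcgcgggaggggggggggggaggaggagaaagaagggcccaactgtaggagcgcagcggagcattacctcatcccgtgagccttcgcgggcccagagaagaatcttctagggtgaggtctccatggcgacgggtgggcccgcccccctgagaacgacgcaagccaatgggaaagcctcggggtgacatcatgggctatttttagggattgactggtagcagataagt
Of these 4 windows, only that of Axin2 held a match, an androgen half-site that begins at position -152 from the start. Among the 34 windows of the group, 6 held the half-site, 5 held CTTTGA and 6 held CTTTGT, on either strand. Of all 32851 promoter windows in the table, 16.1%, 13.8% and 16.5% held these motifs. A match of 6 letters is a description of the window and not evidence of binding.

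Most Wnt ligand probe sets were too dim to test, while most receptor and antagonist probe sets were not. A probe set was tested if its mean log2 signal over the 10 arrays lay above the lowest 40% of the array, a limit of 4.27 (a signal of 19.3). By this rule 28 of the 62 probe sets were tested (45.2%, against 60% of the array by construction), for 17 of the 43 genes. Among ligands it was 3 of 23 probe sets (13%), for Wnt5a and Wnt6 out of 19 genes. Among Frizzled receptors it was 10 of 17 probe sets (58.8%), for 6 of 9 genes, and among secreted antagonists 9 of 13 (69.2%), for 5 of 9 genes. Lrp6, Axin1, Axin2 and Rspo1 were tested, and Lrp5 and Lef1 were not.

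**Figure D1:**
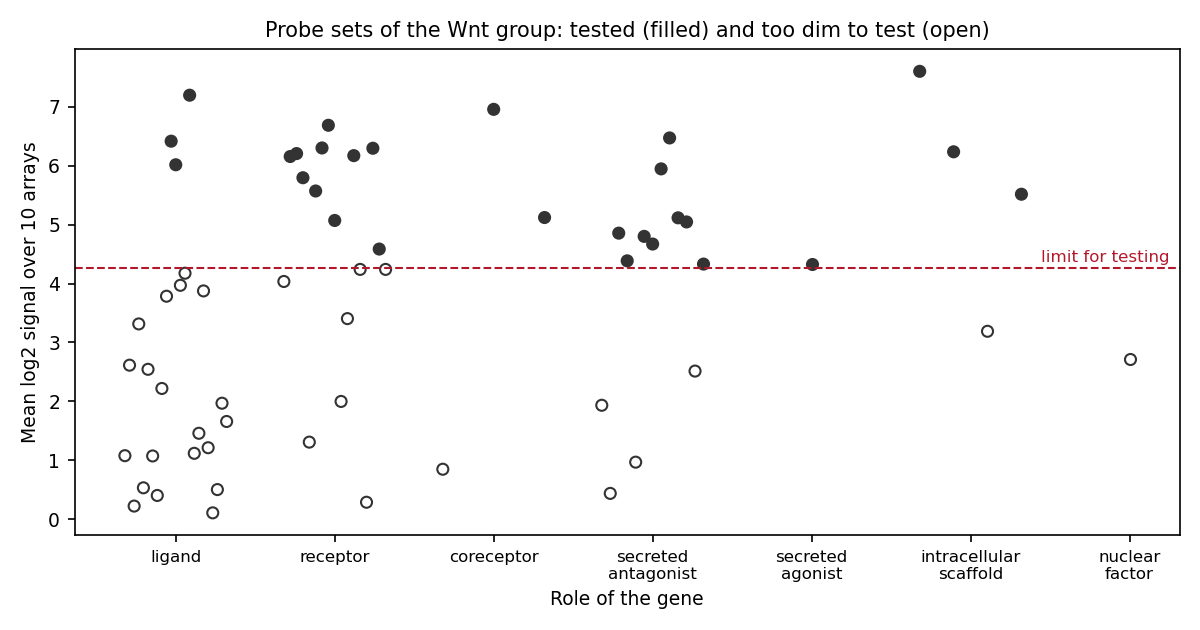
Mean log2 signal over the 10 arrays (vertical axis) of each of the 62 probe sets, by role of the gene (horizontal axis). Filled points were tested and open points lay under the dashed limit of 4.27; 20 of 23 ligand points are open. Heights of different probe sets are not levels of different genes relative to each other.

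Wnt5a was the 1 gene of the group that passed the test between genotypes, and it was higher in SCARKO testes by both of its probe sets. Wls, which carries Wnt proteins out of the cell, was also higher by 2 of its 3 tested probe sets. Porcn was lower, but its SCARKO mean lay under the limit for testing. The Porcn call held in 3 of 10 repeats with changed processing or 1 pair left out. Of the 28 tested probe sets, 2 rose and 0 fell at an adjusted p under 0.05, with 9 at an unadjusted p under 0.05. Among the 9 was Wif1, which was tested only because of its SCARKO signal, so the filter favoured its positive sign. Across the array 5.19% of 13576 tested probe sets were called, 1.93% higher and 3.26% lower, by the same limma test, and 20.9% had an unadjusted p under 0.05. By gene, with each gene read from its brightest tested probe set, 1 of 17 rose and 0 fell, against 2.17% and 3.52% of 7973 genes. The median log2 fold change was 0.085 over the 28 probe sets and 0.014 over all tested probe sets.

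The first Wnt5a probe set (gene ID 22418) had signals of 112.2, 99.6, 89.7, 98.1 and 115.5 in SCARKO pools 1 to 5, against 67.0, 77.3, 73.6, 66.4 and 72.5 in control pools 1 to 5. Every SCARKO pool lay above every control pool. Of all tested probe sets, 2.03% showed such a separation with SCARKO higher, and this was the 1 probe set of the group that did; 0 members were separated with SCARKO lower, against 2.48% of all tested. The means were 103.0 ± 10.7 in SCARKO and 71.4 ± 4.62 in control (SD, n = 5 pools each), a 1.44-fold difference with a log2 fold change of 0.53 (SE 0.08, limma adjusted p = 0.0043). The within-pair log2 ratios were 0.74, 0.37, 0.29, 0.56 and 0.67 for pairs 1 to 5, so pair 5, with matching labels, went the same way as the rest. Without pair 5 the log2 fold change was 0.49 (limma adjusted p = 0.023).

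The second Wnt5a probe set had signals of 79.0, 84.7, 79.5, 62.5 and 76.6 in SCARKO pools 1 to 5 and 62.9, 61.5, 59.7, 54.0 and 40.3 in control pools 1 to 5. The groups overlapped narrowly, since SCARKO pool 4 lay just under control pool 1, yet the SCARKO pool was the higher one in all 5 pairs. The means were 76.5 ± 8.34 in SCARKO and 55.7 ± 9.24 in control (SD, n = 5), a 1.38-fold difference and a log2 fold change of 0.47 (SE 0.10, limma adjusted p = 0.021). Pair 5 had the largest ratio of this probe set, 0.93, with the lowest control pool. The call ended without pair 5 (log2 fold change 0.35, limma adjusted p = 0.063), without pair 3 (0.48, adjusted p = 0.067), without the littermate block (0.47, adjusted p = 0.055) and without an intensity trend (0.47, adjusted p = 0.063). With the dim probe sets included in the test, neither Wnt5a probe set passed (limma adjusted p = 0.08 and 0.15).

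**Figure D2:**
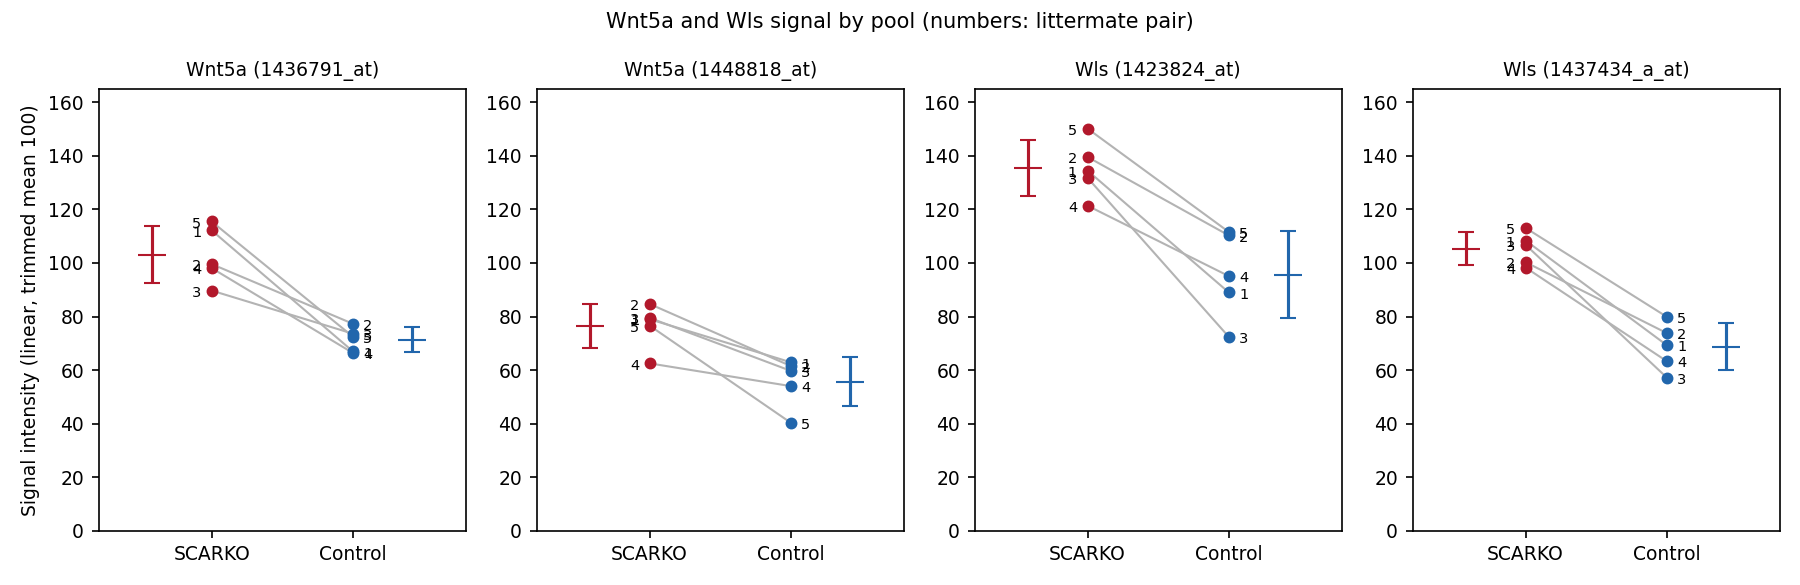
Linear signal intensity (vertical axis) of 2 Wnt5a and 2 Wls probe sets in SCARKO pools (red, left) and control pools (blue, right). Numbered points are pools joined by littermate pair, and bars beside them are mean ± SD (n = 5); in all 4 panels every line runs lower on the control side.

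Wnt6, the other ligand tested, had 139.6, 153.8, 155.7, 159.0 and 147.3 in SCARKO pools 1 to 5 and 160.6, 128.0, 142.3, 148.8 and 130.5 in control pools 1 to 5. The groups overlapped and pair 1 ran opposite to the other pairs. The log2 fold change was 0.09 with a 95% interval from -0.06 to 0.25 (limma adjusted p = 0.50). That interval does not reach the estimate of either Wnt5a probe set, although the difference between the genes was not tested.

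The other 17 ligand genes stayed dim in both genotypes. Wnt4 ranged from 12.8 to 18.6 in SCARKO pools and from 6.4 to 22.3 in control pools. Wnt5b, the close relative of Wnt5a, reached 15.5 to 22.4 in SCARKO and 13.5 to 20.3 in control at its brighter probe set. Wnt11 ranged from 9.4 to 10.9 in SCARKO and from 7.8 to 14.3 in control. The brighter Wnt7b probe set spanned 11.0 to 25.8 in SCARKO and 9.8 to 18.1 in control. All probe sets of Wnt1, Wnt2, Wnt2b, Wnt3, Wnt3a, Wnt7a, Wnt8a, Wnt8b, Wnt9a, Wnt9b, Wnt10a, Wnt10b and Wnt16 stayed under a signal of 10 on every array. Signals this low carry no statement on whether a transcript was present.

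Among the Frizzled receptors, which bind Wnt proteins at the cell surface, none passed the test. Of 10 tested probe sets 0 were called by limma, against 5.19% of all tested probe sets. An unadjusted p under 0.05 was found for 3 of the 10, against 20.9% of all tested probe sets. The median log2 fold change of the 10 was 0.12. Fzd6, a receptor of the polarity pathway, had the smallest p, with 73.8, 73.4, 90.4, 78.3 and 84.9 in SCARKO pools 1 to 5 against 62.3, 64.0, 56.0, 76.6 and 67.7 in control pools 1 to 5. The groups overlapped through control pool 4, and SCARKO was the higher side of all 5 pairs by between 0.03 and 0.69 on the log2 scale. Its log2 fold change was 0.30 (SE 0.09, 95% interval 0.09 to 0.50, limma adjusted p = 0.094), while its dimmer probe set ranged from 16.5 to 24.0 in SCARKO and 17.5 to 20.3 in control and was not tested.

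Fzd7 had 84.3 ± 3.89 in SCARKO and 73.7 ± 9.63 in control (SD, n = 5; log2 fold change 0.20, limma adjusted p = 0.22), with pair 3 opposite to the others. The 3 tested probe sets of Fzd3, a receptor of axon guidance and polarity, gave 0.18, 0.09 and 0.15 on the log2 scale (limma adjusted p from 0.21 to 0.53). Fzd2 was mixed, at 0.13, -0.09 and 0.06 for its 3 tested probe sets. The negative value came from the brightest, whose suffix _s_at marks probes that match more than 1 transcript. Fzd8 had 0.12 (95% interval -0.15 to 0.39), and Fzd4, the receptor for Norrin in vessels, had 0.00 (95% interval -0.29 to 0.29). Among the 28 tested probe sets, that of Fzd4 had the widest spread in SCARKO, a coefficient of variation of 35.1% there against 15% in control.

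The untested receptor genes were dim in both groups. Fzd1 ranged from 14.0 to 23.8 in SCARKO and 13.4 to 17.8 in control, Fzd9 from 13.8 to 22.4 in SCARKO and 13.2 to 22.5 in control, and Fzd5 from 8.4 to 18.0 in SCARKO and 4.7 to 15.4 in control. Fzd9 lay just under the limit and Rspo1 just above it, so the line between tested and untested members is thin there.

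The co-receptor Lrp6, which joins Frizzled to pass the signal to beta-catenin, had the opposite sign to Wnt5a. Its brighter probe set had 107.0, 105.3, 131.9, 124.1 and 124.8 in SCARKO pools 1 to 5 and 119.0, 115.2, 143.1, 149.6 and 129.4 in control pools 1 to 5. The groups overlapped, but the SCARKO pool was the lower one in all 5 pairs, by between 0.05 and 0.27 on the log2 scale. The log2 fold change was -0.14 (SE 0.06, unadjusted p = 0.032) and did not pass (limma adjusted p = 0.19). The second Lrp6 probe set, at -0.10 (95% interval -0.42 to 0.21), had 2 pairs higher and 3 lower. Lrp5 stayed between 0.8 and 5.4 in SCARKO and between 0.4 and 2.3 in control.

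**Figure D3:**
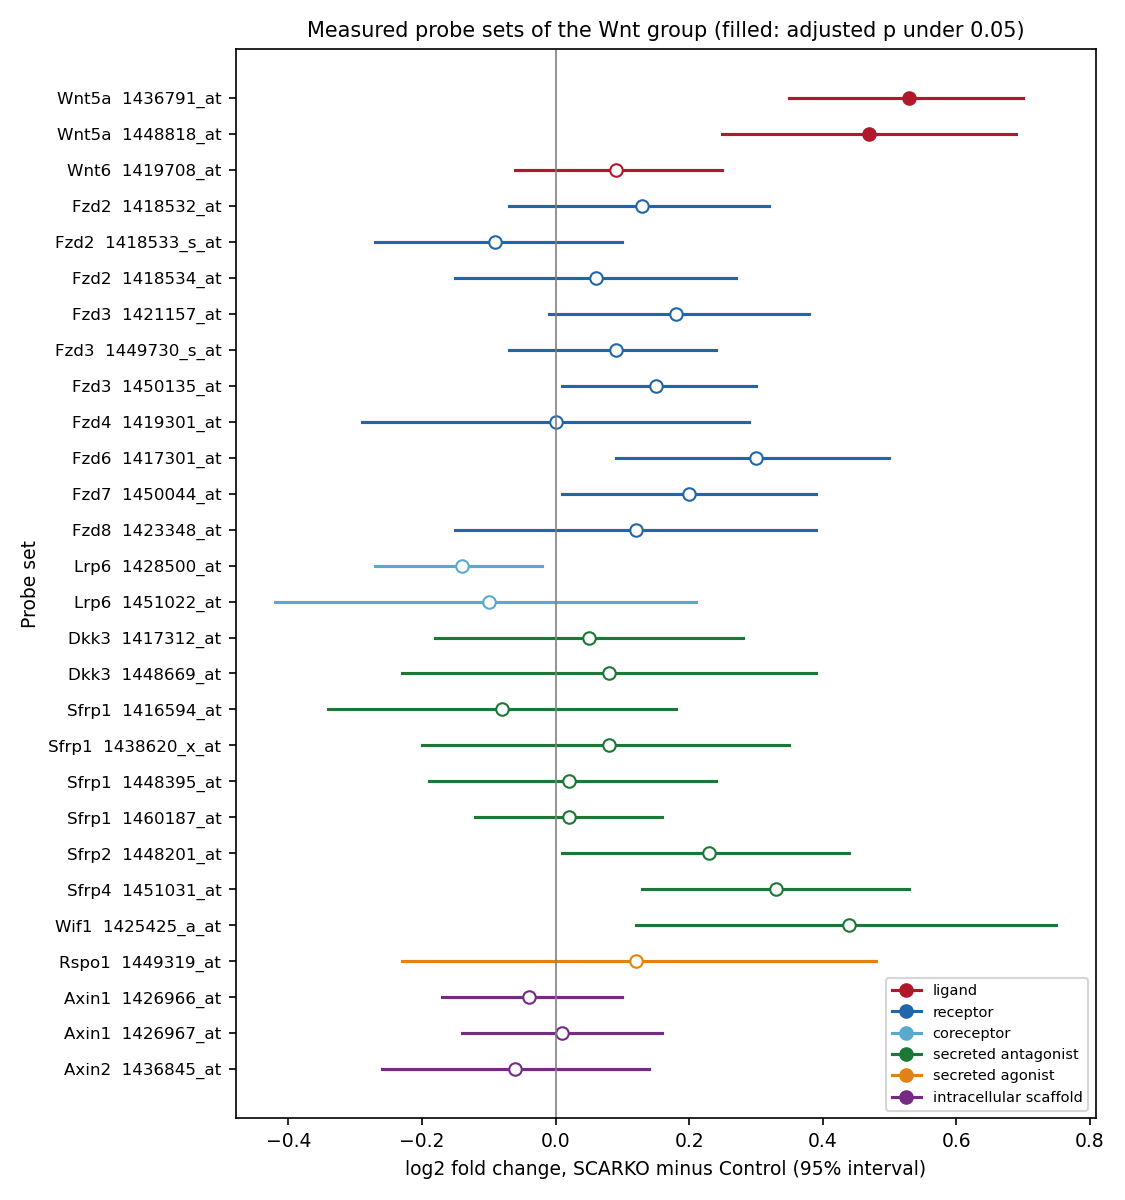
Log2 fold change, SCARKO minus control, with its 95% interval (horizontal axis) for each of the 28 tested probe sets, coloured by role. Wif1 was tested only because of its SCARKO signal. The 2 filled points, both Wnt5a, passed at an adjusted p under 0.05; the intervals of Fzd6, Fzd7, Sfrp2, Sfrp4, Wif1 and 1 Fzd3 probe set lie above 0 and that of 1 Lrp6 probe set below, and these did not pass after adjustment.

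The secreted antagonists trap Wnt proteins or block the co-receptor. Of their 9 tested probe sets, limma called 0, against 5.19% of all tested probe sets. An unadjusted p under 0.05 was found for 3 of the 9, against 20.9% of all tested probe sets. Among the 3 was Wif1, which was tested only because of its SCARKO signal, so the filter favoured its positive sign. Sfrp4, a decoy with a Frizzled-like domain, had the smallest p, with 38.2, 35.3, 43.1, 36.4 and 32.6 in SCARKO pools 1 to 5 against 29.5, 28.9, 33.8, 28.4 and 26.9 in control pools 1 to 5. Only SCARKO pool 5 lay below the highest control pool. Its within-pair ratios were the most even of the group, from 0.28 to 0.37 on the log2 scale. The log2 fold change was 0.33 (SE 0.09, 95% interval 0.13 to 0.53, limma adjusted p = 0.067). It passed in 1 of 10 repeats with changed processing or 1 pair left out. That repeat moderated the variance without an intensity trend (limma adjusted p = 0.025). In the other repeats the limma adjusted p reached 0.19. Sfrp4 also passed when genes were read as the mean of their tested probe sets (limma adjusted p = 0.043).

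Wif1, a secreted inhibitor that binds Wnt proteins directly, had 21.9, 27.2, 27.3, 19.4 and 22.1 in SCARKO pools 1 to 5 and 12.7, 23.2, 18.5, 19.1 and 14.8 in control pools 1 to 5. The SCARKO pool was the higher one of each pair, though by only 0.02 on the log2 scale in pair 4. The log2 fold change of 0.44 (95% interval 0.12 to 0.75) did not pass (limma adjusted p = 0.11). The control mean log2 signal of Wif1, 4.11, lay under the limit for testing, so this probe set was tested only because of its SCARKO signal. Sfrp2 had 37.6 ± 3.95 in SCARKO and 32.1 ± 1.92 in control (SD, n = 5), higher in all 5 pairs, with a log2 fold change of 0.23 (limma adjusted p = 0.21).

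Sfrp1, with 4 tested probe sets, showed little difference. Its brightest probe set had 90.3 ± 13.9 in SCARKO and 89.1 ± 14.3 in control (SD, n = 5), a log2 fold change of 0.02 with a 95% interval from -0.12 to 0.16. The other 3 gave 0.02, 0.08 and -0.08, none past the test. Pairs differed more than genotypes did, with 111.2 in SCARKO pool 5 and 109.8 in control pool 5, and with 78.1 in SCARKO pool 2 and 73.1 in control pool 2. Dkk3, an atypical member of the Dickkopf family, had log2 fold changes of 0.05 and 0.08 at its 2 probe sets (limma adjusted p = 0.83 and 0.79). Dkk1, Dkk2, Dkk4 and Sfrp5 stayed under a signal of 13 on every array. Dkk2 ranged from 0.1 to 0.8 in SCARKO and from 1.0 to 3.6 in control, a separation at background level that got a limma adjusted p of 0.28 when dim probe sets were tested.

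Across the tested group, 6 of 28 probe sets were higher in SCARKO in all 5 pairs and 1 was lower in all 5, while of all tested probe sets 9.97% were higher in all 5 and 8.55% were lower in all 5. The 6 were the pair of Wnt5a probe sets, which count 1 gene 2 times, and those of Fzd6, Sfrp2, Sfrp4 and Wif1. Wif1 was tested only because of its SCARKO signal, so the filter favoured its positive sign. The probe sets were tested over the same 10 arrays, so these counts describe the pools and are not independent of each other. Of the 26 probe sets that did not pass, 23 had a 95% interval that stayed between -0.5 and 0.5 on the log2 scale, and the other three were Fzd6, Sfrp4 and Wif1. Of the 7 genes with several tested probe sets, Axin1, Fzd2 and Sfrp1 had probe sets that differed in sign.

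**Figure D4:**
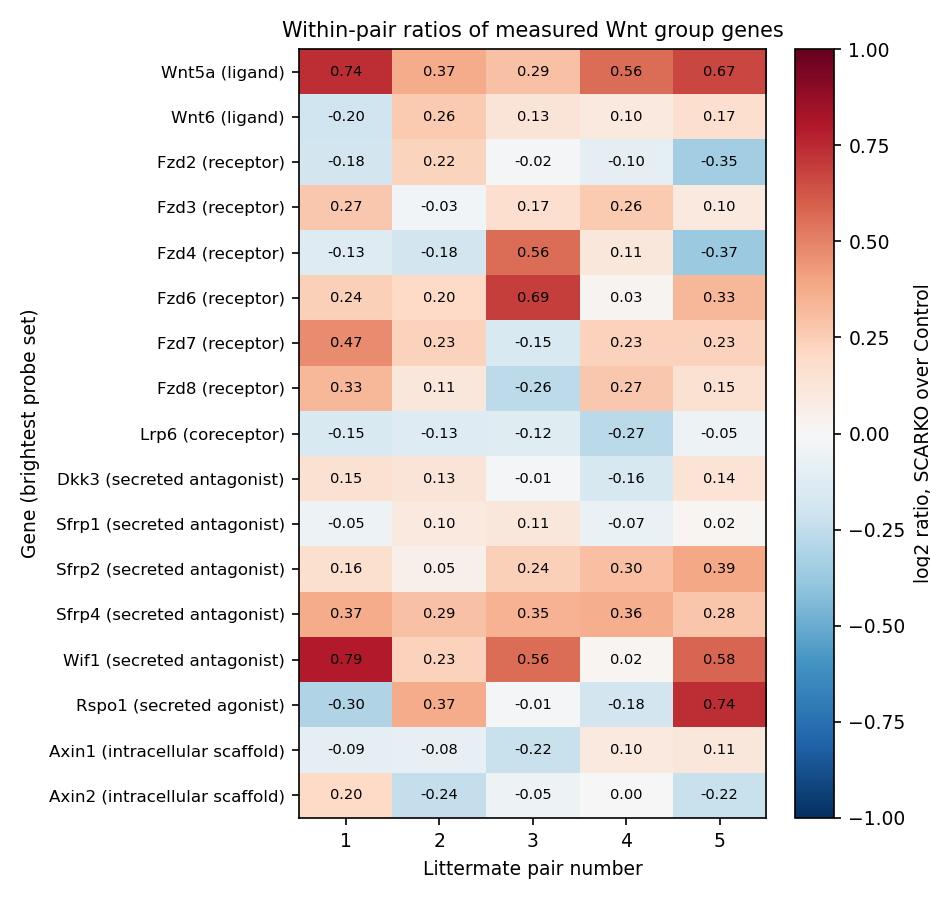
Within-pair log2 ratio, SCARKO over control (colour and number), for the brightest tested probe set of each of the 17 tested genes (rows) in littermate pairs 1 to 5 (columns). Wnt5a, Fzd6, Sfrp2, Sfrp4 and Wif1 are above 0 in every pair and Lrp6 is below 0 in every pair. Wif1 was tested only because of its SCARKO signal.

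Rspo1, a secreted protein that raises Frizzled levels at the surface, had 18.6, 20.4, 21.7, 17.1 and 28.8 in SCARKO pools 1 to 5 and 22.9, 15.8, 21.8, 19.4 and 17.2 in control pools 1 to 5. The groups overlapped, and the log2 fold change of 0.12 (95% interval -0.23 to 0.48, limma adjusted p = 0.71) rested on pair 5, without which it was -0.03. Axin1, the scaffold on which beta-catenin is marked for destruction, had 191.8 ± 16.4 in SCARKO and 196.2 ± 8.30 in control (SD, n = 5) at its brighter probe set (log2 fold change -0.04, 95% interval -0.17 to 0.10).

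Axin2, the scaffold gene that beta-catenin itself induces and a common readout of the pathway, had 47.1, 35.3, 46.7, 47.7 and 48.6 in SCARKO pools 1 to 5 and 41.0, 41.6, 48.2, 47.8 and 56.7 in control pools 1 to 5. The groups overlapped throughout. The log2 fold change was -0.06 (SE 0.09, 95% interval -0.26 to 0.14, limma adjusted p = 0.76). Lef1, a nuclear partner of beta-catenin, was not tested; it ranged from 6.8 to 11.2 in SCARKO and from 1.9 to 8.0 in control, with a limma adjusted p of 0.27 when dim probe sets were included.

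Genes of the wider pathway were read from lists of secretion factors, other receptors, cytoplasmic and nuclear components, and known targets. Of 65 tested genes, 2 rose (Wls and Jun) and 4 fell (Porcn, Gsk3a, Nlk and Id2), with a median log2 fold change of 0.026, against 5.69% called and a median of 0.015 among all 7973 genes. Secretion factors held 1 rise and 1 fall among 6, cytoplasmic components 2 falls among 25, and targets 1 rise and 1 fall among 8. The fall among secretion factors was Porcn, which was tested only because of its control signal, so the filter favoured its negative sign. Other receptors (9 genes) and nuclear components (19 genes) had 0 calls by limma, with 1 and 2 at an unadjusted p under 0.05. Among all genes 21.7% had such a p.

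Wls had the largest called rise in this wider set. At its brightest probe set (gene ID 68151) the signals were 134.5, 139.6, 131.8, 121.4 and 150.2 in SCARKO pools 1 to 5 and 89.0, 110.3, 72.4, 95.1 and 111.6 in control pools 1 to 5. Every SCARKO pool was above every control pool, a log2 fold change of 0.52 (SE 0.08, limma adjusted p = 0.0047). A second probe set separated the groups as well, with 105.4 ± 6.06 in SCARKO and 68.7 ± 8.85 in control (SD, n = 5; log2 fold change 0.63, limma adjusted p = 0.0015). The third and dimmest had 0.31 (limma adjusted p = 0.17). Pair 5 had ratios of 0.43 and 0.50 at the called probe sets, the same direction as pairs 1 to 4.

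Porcn, which modifies the same proteins one step earlier, had signals of 12.9, 15.6, 19.4, 18.9 and 19.1 in SCARKO pools 1 to 5 and 28.5, 18.6, 32.3, 23.5 and 27.4 in control pools 1 to 5. It was lower in SCARKO in all 5 pairs (log2 fold change -0.59, SE 0.15, limma adjusted p = 0.044). However, the SCARKO mean of Porcn lay under the limit for testing, so the filter favoured its negative sign. The Porcn call ended without pair 1, 3, 4 or 5 and without the block (limma adjusted p from 0.062 to 0.15). It also ended without an intensity trend (limma adjusted p = 0.063) and without the filter (limma adjusted p = 0.19). With 16 added before log2 the log2 fold change was -0.34.

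Jun, an AP-1 factor listed among Wnt targets, had 127.5, 142.3, 122.1, 140.6 and 119.9 in SCARKO pools 1 to 5, against 101.2, 94.3, 91.2, 84.0 and 101.3 in control pools 1 to 5. The groups did not overlap (log2 fold change 0.47, SE 0.08, limma adjusted p = 0.0063). Its other probe set had 0.30 (limma adjusted p = 0.12). Of the remaining targets, Id2, an inhibitor of basic helix-loop-helix factors, had 278.9 ± 43.5 in SCARKO and 324.6 ± 41.2 in control (SD, n = 5) and fell by 0.22 (limma adjusted p = 0.029), and Apcdd1 had 0.22 (limma adjusted p = 0.12). Ccnd1 had 0.14 and Myc had 0.01, neither past the test, and Sp5, Notum, Lgr5 and Rnf43 were too dim to test.

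Gsk3a, a kinase that marks beta-catenin for destruction, had 116.9, 126.0, 142.8, 146.5 and 115.0 in SCARKO pools 1 to 5 and 135.5, 169.1, 184.4, 170.3 and 127.8 in control pools 1 to 5. The groups overlapped, with SCARKO the lower side of every pair. Gsk3a fell by 0.28 on the log2 scale (limma adjusted p = 0.026), while its paralogue Gsk3b had 0.06 (adjusted p = 0.76). Nlk, a kinase that acts on the TCF/LEF factors, had 179.6 ± 5.37 in SCARKO and 208.8 ± 7.07 in control (SD, n = 5), with no overlap, and fell by 0.22 (limma adjusted p = 0.033); its other probe set had -0.13. The call of Gsk3a ended without pair 1, 2, 3 or 4, and that of Nlk without pair 1, 3, 4 or 5. That of Id2 ended whichever pair was left out. The limma adjusted p of Gsk3a, Nlk and Id2 reached 0.11, 0.12 and 0.11 there. Without an intensity trend the calls of Gsk3a, Nlk and Id2 ended as well (limma adjusted p = 0.065, 0.077 and 0.1). They also ended without the filter (limma adjusted p = 0.1, 0.075 and 0.11). Without the littermate block those of Gsk3a and Id2 also ended (limma adjusted p = 0.22 and 0.31). As the mean of the tested probe sets of each gene, Nlk had -0.18 and Id2 had -0.16, and neither passed (limma adjusted p = 0.14 and 0.13). Beta-catenin itself (Ctnnb1) had 1718 in SCARKO and 1654 in control at its brightest probe set, a log2 fold change of 0.06 (limma adjusted p = 0.36), and Rac1 had 0.12 (adjusted p = 0.11).

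Among other receptors, Ptk7, a polarity co-receptor, had 0.40 (limma adjusted p = 0.12), with a control mean under the limit for testing. Prickle1 had -0.14 and the glypican gene Gpc3 had -0.22, both at an adjusted p of 0.28. Ror2, a receptor for Wnt5a, was dim, from 14.7 to 21.2 in SCARKO and 14.7 to 18.9 in control. Of the nuclear genes with the smallest p, Cdc73 had -0.20 (adjusted p = 0.12), or -0.30 (limma adjusted p = 0.041) as the mean of its tested probe sets. Tle2 had 0.30 (adjusted p = 0.18) and Ctbp2 had 0.11 (adjusted p = 0.30). Igfbp4, named after its values were seen, passed at 1 probe set that may cross-hybridise (log2 fold change 0.58, limma adjusted p = 0.032), and its brightest had 0.09.

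**Figure D5:**
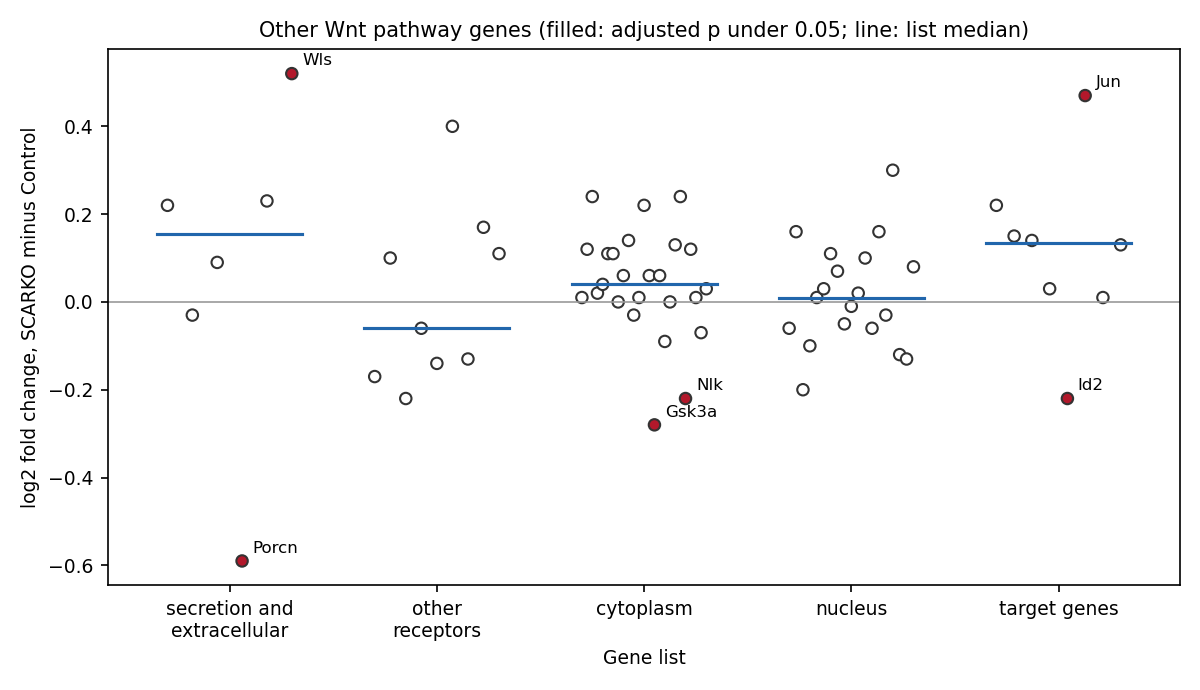
Log2 fold change, SCARKO minus control (vertical axis), of the tested genes in 5 lists of other Wnt pathway genes (horizontal axis), each at its brightest probe set. Porcn was tested only because of its control signal. Filled, named points passed at an adjusted p under 0.05; blue lines are list medians, from -0.064 for other receptors to 0.155 for secretion factors.

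Markers of testicular cells were set beside these values, each gene at its brightest tested probe set. Leydig cell markers held 0 calls among 7 genes, with summed signals of 1116 to 1439 in SCARKO pools and 1051 to 1338 in control pools. Peritubular myoid markers held 0 calls among 9, with sums of 2641 to 3081 in SCARKO and 2976 to 3362 in control. Of the 9, 7 had a negative log2 fold change, against 3591 of all 7973 genes. Another probe set of the myoid marker Mylk, named after its values were seen, fell by 0.22 (limma adjusted p = 0.039). Macrophage, endothelial and spermatogonial markers held 0 calls among 8, 7 and 8 genes. A positive log2 fold change was found for 7, 3 and 7 of these, against 4382 of all 7973 genes. The SCARKO mean of the endothelial marker Tek lay under the limit for testing, so the filter favoured its negative sign. Among all 7973 genes 5.69% were called, so 0 calls in lists of 7 to 9 genes cannot show that a cell type was unchanged. Meiotic prophase genes held 3 falls among 10 (sums 1717 to 2294 in SCARKO and 2055 to 3113 in control). All 10 had a negative log2 fold change (median -0.254), and 8 had an unadjusted limma p under 0.05, against 21.7% of all genes. For the meiotic gene Spo11, the SCARKO mean log2 signal of 4.25 lay under the limit for testing, so the filter favoured its negative sign. Sertoli markers held 3 rises and 3 falls among 14 (6632 to 6956 in SCARKO and 6863 to 7162 in control). Of markers of epididymis and fat, Lpl alone was bright enough and rose by 0.51 on the log2 scale (limma adjusted p = 0.002; 224 to 263 in SCARKO and 139 to 206 in control), and no erythroid marker was. The fat markers Fabp4 and Adipoq reached at most 12.8 and 5.3 on any array and were not tested, so 1 gene stands for that list. The part of all these markers in the Wnt5a and Wls results was not tested.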

How the data were processed

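Whole-testis RNA of 10 pools was measured on Affymetrix arrays. The authors deposited a linear signal intensity for each of 22690 probe sets. The submitters' processing notes name MAS5 for 8 arrays and no tool for the pair numbered 5, and its version was not given in the sources used here. Precision is limited by the 5 arrays per group. The p-values rest in part on how far the SCARKO minus control difference varied between littermate pairs. They also rest on the variance of probe sets of similar signal, toward which each variance was moderated. Symbols are those of the platform annotation, brought to GRCm38.p6 through gene IDs. The targeted gene is not reported here.

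The 64 array controls were left out, values under 1 were set to 1, log2 was taken, and the dimmest 40% were removed, which left 13576 probe sets. The limma package (3.58.1, R 4.3.3) fitted genotype plus littermate pair to each, with variances moderated along an intensity trend. Two-sided p-values were adjusted by the Benjamini-Hochberg method over all 13576. The fit was first tested on simulated data, made without pair effects. It recovered 14 of 50 log2 changes of 0.3, 33 of 50 of 0.5, 47 of 50 of 1 and 50 of 50 of 2. In the same data 3 unchanged probe sets were called. Log2 fold changes are SCARKO minus control, and intervals are 95%. For genes, the brightest tested probe set was used. The pairs come from the labels' protocols, and same-numbered pools deviated together from their group means (correlation 0.11 to 0.39). The highest correlation with another number was lower for pairs 1, 2, 3 and 5 and the same, 0.11, for pair 4.

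Named with per-pool values are called members and the member with the smallest p in each role; other pathway genes are those called and up to 3 per list with the smallest p. Wnt6, Wif1, Igfbp4 and some others were added after their values were seen. The members and lists were chosen with earlier results of these data known. Alternatives were a fit without the block, no filter or a filter at 60%, 16 added before log2, quantile normalization, no intensity trend, the mean of a gene's probe sets, groups from the descriptions and each pair left out.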

Additional observations from a re-analysis of the deposited data

Results flagged for a closer look

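A pool stood apart from the other 4 of its group in 3 of 84 group checks over 42 probe sets, where chance gives about 1 in 20. Axin2 had 35.3 in SCARKO pool 2, against 46.7 in the nearest SCARKO pool. Dkk3 had 25.7 in control pool 4, against 28.8 in the nearest control pool. Tle2 had 32.1 in control pool 2, against 24.9 in the nearest. None of these probe sets passed the test of SCARKO against control.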

How the results depend on the processing

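Of 139 repeats of the 13 named log2 fold changes, not counting groups from the descriptions, 101 kept their direction and side of the threshold, 36 lost the call, 1 gained it (Sfrp4, 0.33 without a trend) and 1 changed sign (Rspo1, -0.03 to 0.23 over the pairs left out). The first Wnt5a probe set, Wls and Jun lost their call only without the filter, and their log2 fold changes stayed between 0.44 and 0.59, 0.43 and 0.56, and 0.40 and 0.52. The counts of called member probe sets (2), member genes (1), other pathway genes (6) and all probe sets (704) were 1, 1, 3 and 404 without the littermate block. Without the filter limma called 0, 0 and 0 of the Wnt sets (10, 9 and 15 at an unadjusted p under 0.05) and 38 probe sets in all; the cause was not tested. Without an intensity trend the counts were 2, 2, 2 and 321, and the 2 member probe sets were the first of Wnt5a and that of Sfrp4. With the mean of a gene's probe sets 2 member genes (Wnt5a and Sfrp4) and 5 pathway genes were called, with Cdc73 gained and Id2 and Nlk lost. Leaving out 1 pair gave 1 to 2 member probe sets (1 without pair 3 or 5), 2 to 4 pathway genes (2 without pair 3 or 4, 3 without pair 1 or 5) and 304 to 744 probe sets (304 without pair 3, 345 without pair 5, 426 without pair 1). Member genes stayed at 1 there. With groups from the descriptions limma called 0, 0, 0 and 0 (0, 0, 3 and 611 at an unadjusted p under 0.05), and log2 fold changes turned to -0.26 and -0.10 (Wnt5a), 0.12 (Lrp6), -0.17 (Fzd6), -0.22 (Sfrp4), 0.21 (Gsk3a), 0.10 (Id2), -0.37 (Jun), 0.11 (Nlk), 0.39 (Porcn) and -0.34 (Wls). The stricter filter, 16 added before log2 and quantile normalization kept every count within 1.5 times. Axin2, Rspo1, Sfrp4 and Porcn were too dim for the stricter filter. MAS5 signals near background limit what can be said of the 26 untested genes.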
